A study of Mus musculus with 10 samples.

Results

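The proteasome is the large protease of the cytosol and nucleus that degrades proteins tagged with ubiquitin. Its barrel-shaped 20S core is built from rings of alpha and beta subunits, and 3 of the beta subunits carry the proteolytic sites. The 19S regulatory particle caps the core: its base holds a ring of ATPases that unfold the substrate, and its lid removes the ubiquitin chain. Under interferon the catalytic beta subunits can be replaced by the immunoproteasome subunits Psmb8, Psmb9 and Psmb10, which favour peptides for presentation on class I molecules. Genes were taken as members when the mouse symbol of their identifier began with Psm, a letter from a to g and a digit. Of the 14276 genes in the count table, 47 were members. Of these, 31 encode subunits of the complete 26S proteasome: 7 alpha subunits, 7 constitutive beta subunits, 6 base ATPases, 3 other base subunits and 8 lid subunits. The other members are 3 immunoproteasome subunits, 3 base chaperones (Psmd5, Psmd9, Psmd10), 4 core chaperones (Psmg1 to Psmg4), 4 activators (Psme1 to Psme4), the inhibitor PI31 (Psmf1) and Psmc3ip. Psmc3ip has a matching name but encodes a meiotic recombination factor, not a subunit. The tissue-restricted subunits Psma8 (testis) and Psmb11 (thymus) matched the pattern in the annotation but had no row in the table.

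C57BL/6 mice were 3 months old when the cerebral cortex was taken. Total RNA was sequenced after depletion of ribosomal RNA, in 5 control libraries and 5 libraries labelled BrapcKO, a conditional knockout of the ubiquitin ligase gene Brap. The control group held 3 flox/wt Cre- libraries (08, 22, 23) and 2 flox/flox Cre- libraries (09, 24). The BrapcKO group held 3 flox/ko Cre+ libraries (04, 07, 21) and 2 flox/flox Cre+ libraries (05, 06). The labels give neither the Cre driver nor the cells it acts in, and every BrapcKO library is Cre+, so an effect of Cre cannot be told apart from one of the Brap alleles. Separate animals are not stated for the libraries, so what the p-values reflect is the variation among these libraries, which may be technical. The comparison asks how the cortex of the knockouts differs from that of control littermates.

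Each title also has a code (B1 or B2) that the labels do not explain. B1 held 2 control (08, 09) and 4 BrapcKO libraries (04, 05, 06, 07), and B2 held 3 control (22, 23, 24) and 1 BrapcKO library (21). Total counts were 17188901 to 20955211 in B1 and 26356508 to 28991874 in B2. Y-linked genes were high in control 23 and BrapcKO 05, 06, 07 and 21 and near 0 elsewhere, so sex was also uneven between the groups. Brap itself stood at 76.7 to 98.6 CPM (counts scaled to library totals with TMM factors) in the controls and at 89 to 110.5 CPM in the libraries labelled BrapcKO (log2 difference 0.23, edgeR adjusted p = 0.2). A single count for the whole gene cannot reveal a missing exon, so this value is no check of the labels, on which all directions below depend. Cortical excitatory markers were present at a summed 1496 to 2004 CPM over all libraries. Once the code entered the fit, 1 of these 9 markers was called higher and 2 lower, with a median log2 fold change of -0.47. Markers of the striatum, the region beneath the cortex, summed to 534 to 1176 CPM in the controls and 930 to 1736 CPM in BrapcKO. Of these 9, 6 were called higher once the code entered the fit and 2 without it. Without the code 0 of the cortical markers were called higher and 1 lower. Of all 14276 genes, 446 were called higher and 706 lower with the code, and 261 and 356 without it. The part of cortical and striatal tissue in the values below was not tested.

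The base ATPases had the highest median level of the classes, 44.2 CPM per kb of exon. Medians were 31.7 CPM per kb for the other base subunits, 25 for the lid, 22.5 for the alpha and 21.9 for the beta subunits. The mean over all 10 libraries ran from 16.7 (Psmc2) to 74.6 CPM per kb (Psmc5) among the base ATPases, which unfold the substrate. Alpha subunits, which form the outer rings and the gate, ran from 10 (Psma3) to 51.1 CPM per kb (Psma6). Constitutive beta subunits ran from 10.8 (Psmb3) to 46.3 CPM per kb (Psmb4). Lid subunits lay between 6.35 (Psmd11) and 31.9 CPM per kb (Psmd14, the deubiquitinase of the lid). The chaperones, which guide assembly and leave the finished particle, were lower, from 1.87 (Psmg3) to 8.88 CPM per kb (Psmd5). Of the immunoproteasome subunits, Psmb8 and Psmb9 stood at 0.584 and 0.233 CPM per kb and Psmb10 at 13.4 CPM per kb. Psma3, Psmb3 and Psmb5 are among the members that differ most between B1 and B2, so their means join unlike levels.

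**Figure D1:**
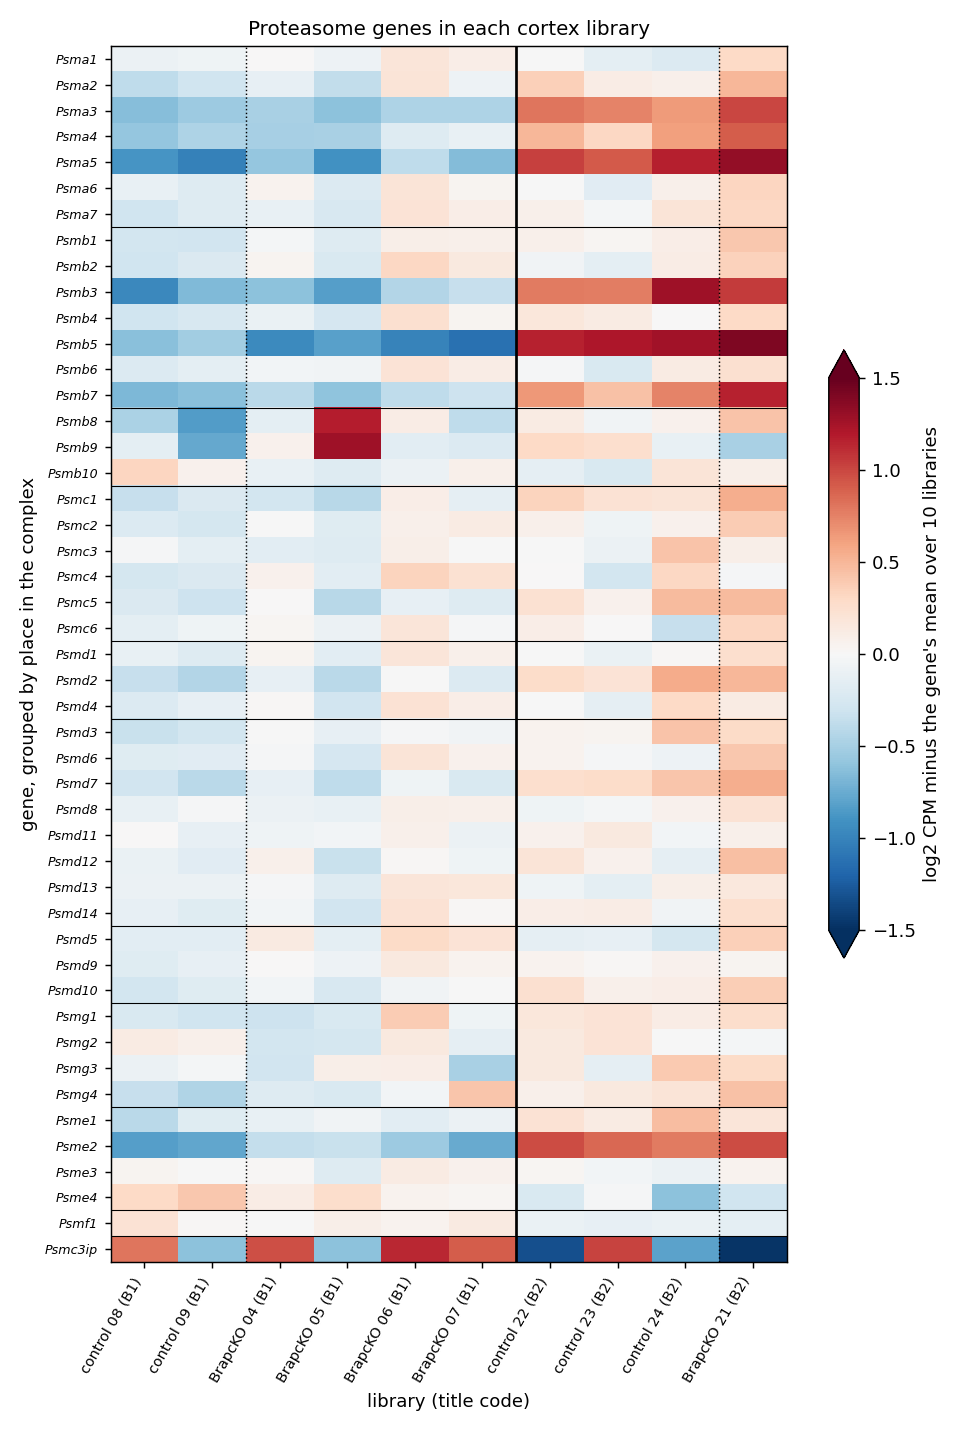
Each row is a member, grouped by its place in the complex, and each column a library, with B1 left and B2 right of the thick line and control and BrapcKO divided by dotted lines. Colour is log2 CPM minus the gene's mean over the 10 libraries. Psma3, Psma4, Psma5, Psmb3, Psmb5, Psmb7 and Psme2 are blue in all 6 B1 and red in all 4 B2 libraries.

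The largest differences among the members followed the title code, not the group. With the group in the model, 20 members were higher and 1 was lower in B2 than in B1 (edgeR adjusted p under 0.05). That is 44.7% of the members called, against 25.1% of all genes, and 42.6% called higher against 13.4% of all genes. By more than 2-fold, 7 core or activator genes differed, and their log2 differences were 2.03 for Psmb5, 1.96 for Psma5, 1.70 for Psmb3, 1.58 for Psme2, 1.40 for Psmb7, 1.40 for Psma3 and 1.09 for Psma4. In 14 members all 4 B2 libraries lay above all 6 B1 libraries, which held for 10.6% of all genes. The opposite held for 2 members, Psme4 and Psmf1, and for 8.92% of all genes. Among the 31 subunits of the 26S particle every log2 difference was above 0, with a median of 0.32 (all genes -0.02). The 5 control libraries alone, 2 of B1 and 3 of B2, gave 15 members higher and 0 lower, against 9.09% and 5.32% of all genes.

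Psmb5 encodes the beta5 subunit, which carries the chymotrypsin-like site and is the target of the drug bortezomib. It stood at 8.65 and 9.36 CPM in the B1 controls 08 and 09, and at 29.8, 31.1 and 32.1 CPM in the B2 controls 22, 23 and 24. In BrapcKO it stood at 6.9, 7.64, 6.71 and 6.16 CPM in the B1 libraries 04, 05, 06 and 07, and at 35.3 CPM in the B2 library 21. The codes therefore did not overlap in either group, and the B2 to B1 ratio was 4.09. Psma5, an alpha subunit, stood at 8.8 to 13.6 CPM over the 6 B1 libraries and at 33.5 to 44.1 CPM over the 4 B2 libraries, again without overlap. Psme4, which encodes the activator PA200, went the other way, from 96.3 to 126 CPM in B1 and 61.8 to 93.9 CPM in B2 (log2 difference -0.54, SE 0.12, adjusted p = 0.0044).

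Many of the members that differed by code have a near-identical copy elsewhere in the genome. A copy was counted where another gene's transcript in GENCODE M21, at another place in the genome, matched at least 50% of the longest coding sequence at 90% identity or more. This property was examined after the differences by code had been seen, and the genes in the paragraphs on the code were named after their values were seen. By this measure 15 of 47 members (31.9%) had a copy, against 10.4% of all genes with a coding sequence. Of these 15, 12 were called higher in B2 (80%, against 55.2% of all genes with a copy), with a median log2 difference of 0.72. Among the 32 members without a copy, 8 were called higher (25%, against 8.54% of all genes without a copy) and 1 lower, with a median of 0.18. Over the whole table the median was 0.43 for the 1477 genes with a copy and -0.05 for the 12778 without. It rose with the identity of the closest copy, from 0.12 at 90 to 92 percent identity through 0.29 at 94 to 96 percent to 1.10 at 98 to 100 percent.

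The following coding stretches of 90 bases show how alike these copies are. Psmb5 and Psma5 were chosen as the members with a copy and the largest differences by code, and Psmb1 as the member whose copy, over at least 90% of the coding sequence, is the least alike. Not every chromosome was considered for copies in this choice. Capitals mark the bases that differ between a member and its copy, and each stretch is written 5′ to 3′ on the coding strand.
Psmb5: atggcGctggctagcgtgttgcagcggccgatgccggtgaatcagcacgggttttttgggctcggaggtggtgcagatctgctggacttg
Gm3375: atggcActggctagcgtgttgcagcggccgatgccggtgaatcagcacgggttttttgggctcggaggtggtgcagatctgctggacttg
Psma5: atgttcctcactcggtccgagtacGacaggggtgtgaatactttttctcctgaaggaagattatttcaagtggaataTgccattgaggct
Gm8394: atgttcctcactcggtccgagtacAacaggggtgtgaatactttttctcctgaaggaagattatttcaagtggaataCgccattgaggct
Psmb1: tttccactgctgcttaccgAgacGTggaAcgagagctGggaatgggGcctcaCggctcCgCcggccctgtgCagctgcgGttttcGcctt
Gm14830: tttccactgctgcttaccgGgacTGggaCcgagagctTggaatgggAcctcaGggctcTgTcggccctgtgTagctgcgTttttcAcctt

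Psmb5 (GRCm38, chr14:54614119-54618022, minus strand) and its processed copy Gm3375 (chr7:3181093-3181888, plus strand) differ at 1 of the first 90 coding bases. Over the whole coding sequence they are 98.9% identical. Psma5 (chr3:108256926-108279974, plus strand) and Gm8394 (chr10:85313488-85314439, plus strand) differ at 2 of the 90 bases. Psmb1 (chr17:15475021-15499751, minus strand) and Gm14830 (chrX:94774978-94775677, minus strand) differ at 12 of 90, and over the coding sequence they are 90.5% identical. The log2 difference by code was 0.38 for Psmb1, against 2.03 and 1.96 for Psmb5 and Psma5. Because Psmb5 and Psma5 were chosen for this difference, the contrast with Psmb1 is in part built in by the choice.

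A closer measure is the share of 50-base windows of the coding sequence that occur unchanged in another gene's transcript, since a read of that length could not be placed by its letters. That share was 85.6% for Psma3, 79.1% for Psma5, 70.7% for Psmb3, 69.5% for Psme2, 56.8% for Psmb5 and 39% for Psma4. These are 6 of the 7 members with more than a 2-fold difference by code. It was lower for Psmd2 (25.6%), Psmc1 (21.3%), Psme1 (21.1%) and Psma2 (15.5%), whose log2 differences were 0.72, 0.60, 0.45 and 0.55. Psmd11, a lid subunit with a share of 32.3%, differed by only 0.11. Psmb7, the trypsin-like subunit, had no shared window and still differed by 1.40, and its only copy covers 67.1% of the coding sequence at 90% identity. Of the Psmb7 exons, 11.8% overlap exons of Nek6 on the opposite strand. Such an overlap with some gene was present in 12 members, among them also Psma4, Psma5, Psme1, Psmb8 and Psmb9. On the same strand, exons of Psmb5, Psmd1 and Psmg3 overlap those of another gene. The part of these overlaps in the counts was not tested. Psmd7 and Psmc5 have no copy and differed by 0.69 and 0.58. No source used here gives the read length or how reads with several matches were counted, and the part of either in these differences was not tested. B2 libraries also hold more counts than B1 libraries, and depth and code cannot be told apart.

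**Figure D2:**
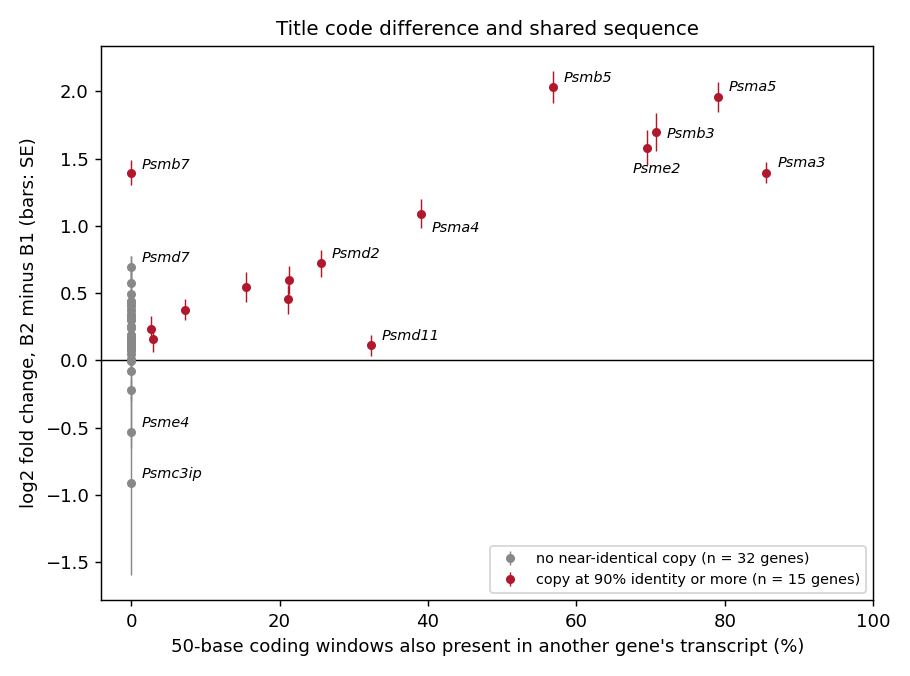
The horizontal axis is the share of 50-base coding windows that also occur in another gene's transcript, in percent, and the vertical axis is the log2 fold change of B2 over B1 with its SE. Each point is a member, red with a near-identical copy (15 genes) and grey without (32 genes). Psma5 (79.1%, 1.96) and Psmb5 (56.8%, 2.03) lie high, whereas Psmd11 (32.3%, 0.11) and Psmb7 (0%, 1.40) depart from the other red points.

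In the comparison of the groups without the code, no member passed the threshold. The edgeR test called 0 of 47 members, against 4.32% of all genes, and 2 members had an unadjusted p under 0.05 (Psma1 and Psmd5). Over all 14276 genes, 2641 had such a p. DESeq2 called 1 member, Psmd5, and 8.31% of all genes. In no member did the 5 libraries of one group lie above all 5 of the other, which held for 3.12% of all genes in the higher and 3.71% in the lower direction. The median log2 fold change of BrapcKO over control was 0.06, with 30 of 47 members above 0, and over all genes it was 0.003, with 50.5% above 0.

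With the code as a second term, 4 members were higher and 0 lower. That is 8.51% of the members, close to the 8.07% of all genes called in that fit, and 3.12% of all genes were called higher. In the edgeR fit 17 members and 3166 of all 14276 genes had an unadjusted p under 0.05. DESeq2 called 5 members with the code, and 1682 of all genes. The 4 members were Psmd5, Psmb7, Psmb1 and Psmc2. Log2 fold changes were above 0 in 40 of 47 members, against 51.7% of all genes, and their median was 0.19, against 0.008 over all genes. Between the fits 16 members changed sign, among them Psma3, Psma5, Psmb3, Psmb7 and Psme2. With the Y-linked score as a further term, edgeR called 0 members and 328 of all genes, with 12 members at an unadjusted p under 0.05. Within the B1 libraries alone 0 members and 416 of all genes were called, with 10 members at an unadjusted p under 0.05. The share of all genes at that p is not given for either fit. In B1 the 4 BrapcKO libraries lay above both controls in 12 members (25.5%, against 14.1% of all genes). They lay below both in 2, Psmb5 and Psme4 (4.26%, against 15.5%). Leaving out any 1 of 7 libraries (control 08, 09, 22 or 23, BrapcKO 06, 07 or 21) also ended all 4 calls. In those runs 406 to 945 of all genes were called. Without BrapcKO 05 there were 10 calls, without control 24 there were 7 and without BrapcKO 04 there were 2. Over all genes these runs called 1368, 1454 and 1029, in the same order.

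**Figure D3:**
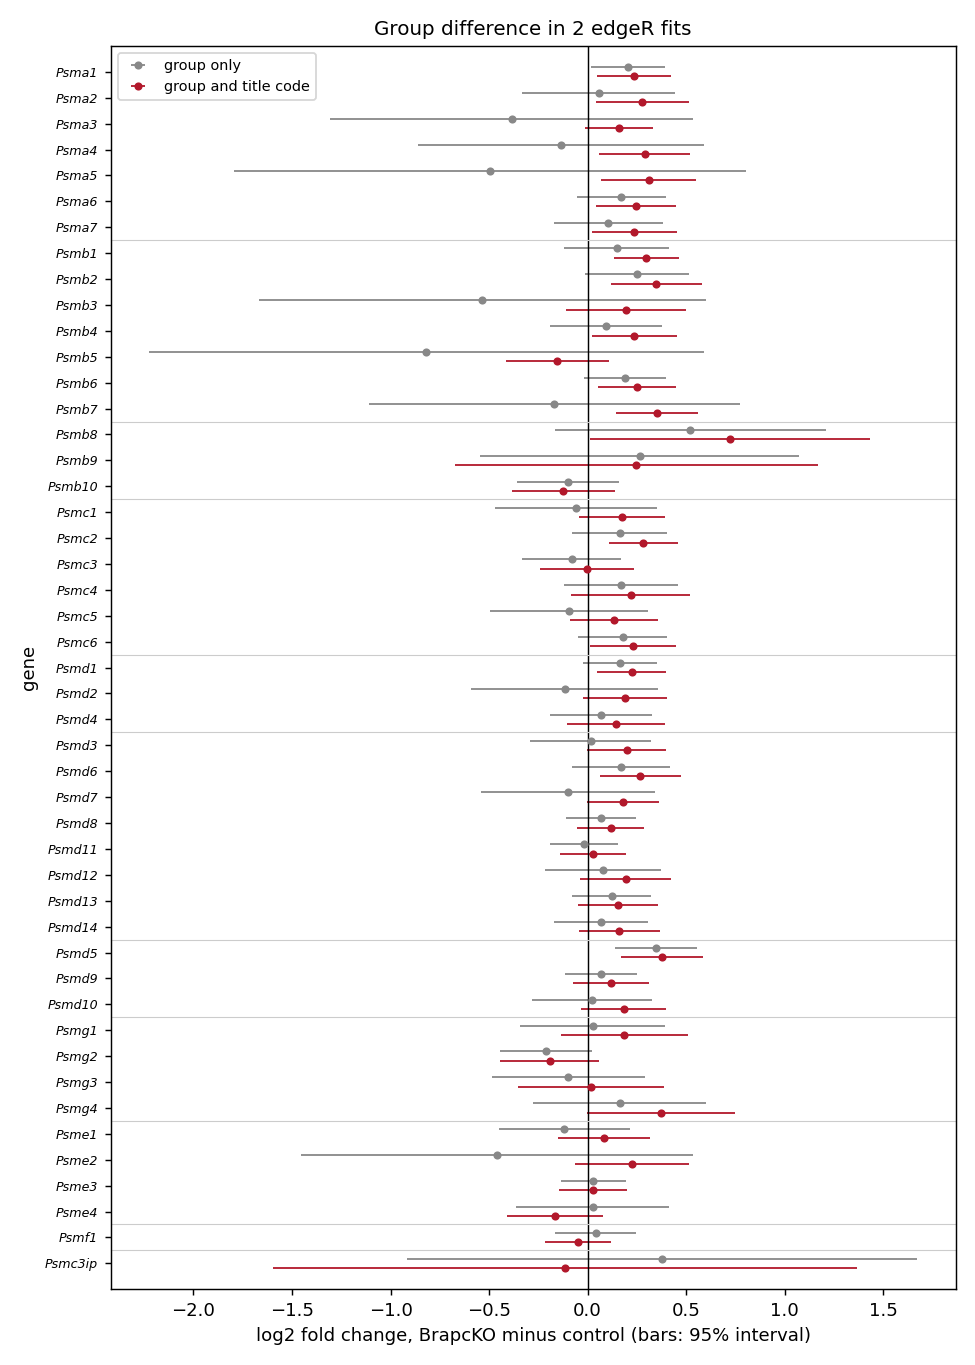
Points are log2 fold changes of BrapcKO over control for each member, with 95% intervals, from the edgeR fit of the group alone (grey) and from the fit that adds the title code (red). Intervals of members that differ strongly by code, such as Psmb5 and Psma5, are wide in grey and narrow in red. Of 47 points, 40 red and 30 grey lie above 0.

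Psmd5, a chaperone that holds base ATPases during assembly, had the smallest p of the members in the fit without the code. Psmd5 (ENSMUSG00000026869.12, GRCm38 chr2:34849734-34874968, minus strand) stood at 56.7, 57.1, 57.8, 58.1 and 52.9 CPM in the 5 controls 08, 09, 22, 23 and 24. BrapcKO 04, 05, 06, 07 and 21 held 69.8, 57.3, 77.2, 73.2 and 81.5 CPM. In 4 BrapcKO libraries the level lay above every control, and in BrapcKO 05 it lay within the control range. Control averaged 56.5 ± 2.1 CPM and BrapcKO 71.8 ± 9.2 CPM (SD, n = 5 per group), and the log2 fold change was 0.35 (SE 0.10, 95% interval 0.14 to 0.55, edgeR adjusted p = 0.065). It passed with DESeq2 (adjusted p = 0.013), with library size as the only scaling and without BrapcKO 05 (edgeR adjusted p = 0.04 and 0.016), and the adjusted p ran from 0.013 to 0.33 over all alternatives. With the code it was 0.38 (edgeR adjusted p = 0.031), and over the other settings of that fit the adjusted p ran from 0.0051 to 0.27. Psmd5 did not differ detectably by code (log2 0.09, edgeR adjusted p = 0.56), and it has no near-identical copy. The other base chaperones, Psmd9 and Psmd10, gave 0.12 and 0.18 with the code (edgeR adjusted p = 0.48 and 0.31).

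Among the core beta subunits, Psmb1 and Psmb7 were called with the code. Psmb1, a structural subunit of the beta ring, stood at 82.4 and 81.4 CPM in the B1 controls and 97.8, 87.1, 106 and 105 CPM in BrapcKO 04, 05, 06 and 07. In B2 the controls lay at 101 to 106 CPM and BrapcKO 21 at 132 CPM. Within each code the BrapcKO libraries were therefore all above the controls, by a log2 fold change of 0.30 in the fit (SE 0.08, edgeR adjusted p = 0.033). In B1 such a separation held for 14.1% of all genes, and the share over both codes was not computed. Psmb7 stood at 40.1 and 41.2 CPM in the B1 controls and 42.1 to 51.6 CPM in the B1 BrapcKO libraries. In B2 it stood at 86.4 to 107 CPM in the controls and 143 CPM in BrapcKO 21. Its log2 fold change was 0.35 with the code (SE 0.10, edgeR adjusted p = 0.042) and -0.17 without it (edgeR adjusted p = 0.86). Psmb2, another structural subunit, gave 0.35 with the code without passing the threshold (edgeR adjusted p = 0.067). Psmb6, the beta1 subunit with the caspase-like site, gave 0.25 (edgeR adjusted p = 0.12).

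Of the 7 constitutive beta subunits, 6 were above 0 with the code and Psmb5 was below. Whether Psmb5 differs from the others was not tested, and many of its coding windows occur in another gene's transcript. Its log2 fold change with the code was -0.15 (SE 0.12, edgeR adjusted p = 0.5), and without it -0.82 (95% interval -2.23 to 0.59, edgeR adjusted p = 0.53). The 4 B1 BrapcKO values given above lie below both B1 controls, and the B2 BrapcKO value lies above all 3 B2 controls, so the codes differ in direction. The direction in B2 rests on a single BrapcKO library. Within B1 alone the value was -0.40 (edgeR adjusted p = 0.21).

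All 7 alpha subunits were above 0 with the code, from 0.16 (Psma3) to 0.31 (Psma5), and none passed the threshold, with 6 at an unadjusted p under 0.05. Psma1, with an unadjusted p of 0.034 without the code, stood at 57.4 to 65.8 CPM in the controls and 62.6 to 81.4 CPM in BrapcKO. Its log2 fold change was 0.21 without and 0.24 with the code (edgeR adjusted p = 0.22 and 0.13). Psma6 gave 0.17 and 0.25 (edgeR adjusted p = 0.42 and 0.14).

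Of the 9 base subunits, 8 were above 0 with the code and 1, Psmc2, passed the threshold. Psmc2, an ATPase of the ring, stood at 72.2 and 69.7 CPM in the B1 controls and 73.9 to 90.7 CPM in the B1 BrapcKO libraries. It stood at 80 to 88.2 CPM in the B2 controls and 109 CPM in BrapcKO 21, again above the controls of its code. Its log2 fold change was 0.28 with the code (SE 0.08, edgeR adjusted p = 0.049) and 0.16 without (edgeR adjusted p = 0.48). Psmc3 gave -0.003 with the code (edgeR adjusted p = 0.99). Psmc5 and Psmc6 gave 0.13 and 0.23 (edgeR adjusted p = 0.5 and 0.2). Psmd1 and Psmd2, the large scaffolds of the base, gave 0.22 and 0.19, and Psmd4, a ubiquitin receptor, gave 0.14 (edgeR adjusted p = 0.12, 0.29 and 0.52).

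All 8 lid subunits were above 0 with the code and none passed the threshold, with 1 (Psmd6) at an unadjusted p under 0.05. They ran from 0.03 for Psmd11 to 0.27 for Psmd6 (edgeR adjusted p = 0.88 and 0.11). Psmd7, the inactive partner of the deubiquitinase, gave -0.10 without and 0.18 with the code. Psmd13 gave 0.12 and 0.15.

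Over the 31 subunits of the 26S particle the values with the code lay close together. The median log2 fold change was 0.22, 29 of 31 were above 0 and 3 were called, all higher. That is 9.68%, against 8.07% of all genes called and 3.12% called higher. Without the code the median was 0.07, with 19 above 0. In that fit it was -0.0002 (15 above 0) without BrapcKO 21, the only B2 library of its group. It was 0.0245, 0.0352 and 0.0427 without BrapcKO 06, control 08 or control 09, and 0.14 without BrapcKO 05. With the Y-linked score alone as a second term it was 0.0118 (16 above 0), and for flox/flox Cre+ set against flox/flox Cre- it was 0.0015 (16 above 0), and 0.11 (25 above 0) for flox/ko Cre+ against flox/wt Cre-. The 18 subunits without a near-identical copy had a median of 0.11 without and 0.22 with the code, and 15 and 17 of them were above 0. Those with a copy, 13 subunits, had medians of -0.12 and 0.20. Within the B1 libraries alone the median over the 31 was 0.19, with 30 above 0, and with the code and the Y-linked score it was 0.26. Leaving out 1 library at a time from the fit with the code gave medians of 0.18 to 0.27. Core, base and lid had medians of 0.25, 0.19 and 0.17 with the code, and no difference between them was tested. Subunits measured in the same libraries are not independent, and no test was run over the list.

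Set against the mean of the control libraries of the same code, the 31 subunits had medians of 0.18, 0.34 and 0.23 (log2) in BrapcKO 04, 06 and 07 and of 0.27 in BrapcKO 21. In these libraries 28, 30, 29 and 29 subunits lay above 0. The same count over all genes was not made, and subunits of the same library are not independent. BrapcKO 05 had a median of -0.01, with 13 of 31 above 0. The controls ran from -0.09 (control 23) to 0.10 (control 24). Each control is itself part of the mean it is set against, which draws its value toward 0. For that reason controls 08 and 09, the only B1 controls, mirror each other (-0.02 and 0.02). By this measure 4 of 5 BrapcKO libraries lay above the controls and BrapcKO 05 lay among them, but the control range is narrowed by construction. BrapcKO 05 was also the library with the highest summed microglial markers, 1248 CPM against 326 to 353 in the controls and 457 to 530 in the other BrapcKO libraries. Summed astrocyte markers were highest there too, 8955 CPM against 5298 to 7118 in the controls and 4905 to 7948 in the other BrapcKO libraries. The endothelial, oligodendrocyte and neuronal sums were not highest in BrapcKO 05. The B1 reference rests on only 2 control libraries and B2 holds a single BrapcKO library.

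**Figure D4:**
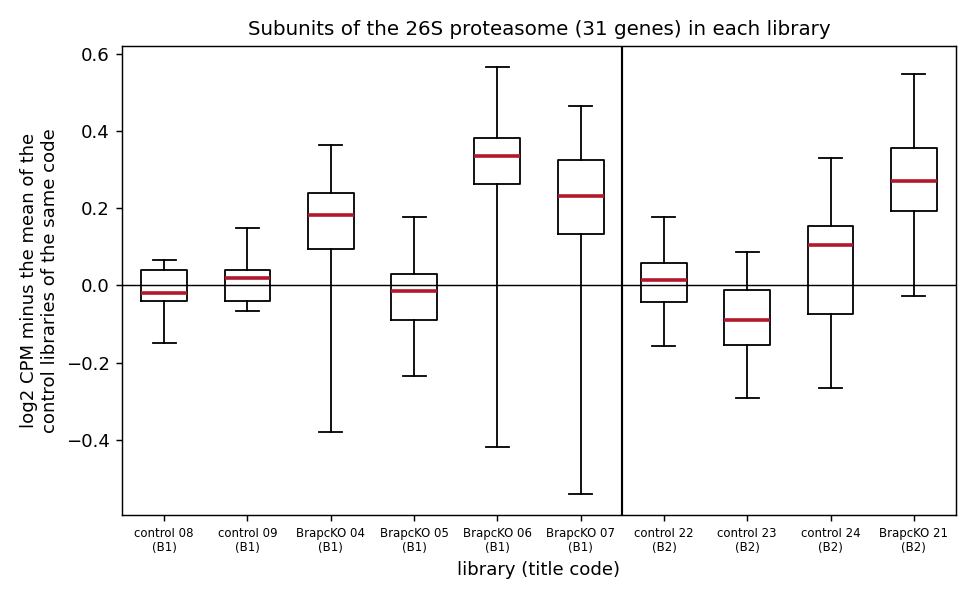
For each library the box spans the middle of the 31 subunits of the 26S particle, the red line is their median and the whiskers reach the lowest and highest subunit. The vertical axis is log2 CPM minus the mean of the control libraries of the same code, with B1 left and B2 right of the line. Each control library is part of the mean it is set against. Medians of BrapcKO 04, 06, 07 and 21 lie at 0.18 to 0.34 and that of BrapcKO 05 at -0.01. The lowest whiskers of BrapcKO 04, 06 and 07 are set by Psmb5.

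None of the immunoproteasome subunits passed the edgeR threshold in either fit, with 0 at an unadjusted p under 0.05 without the code and 1 (Psmb8) with it. Psmb8 (beta5i, which replaces Psmb5) stood at 1.32, 1.03, 2.01, 1.78 and 1.93 CPM in the 5 controls, in the same order. The BrapcKO libraries, in the same order as for Psmd5, held 1.66, 4.16, 1.98, 1.42 and 2.48 CPM. BrapcKO 05 was the highest library. The groups overlapped over both codes, but within each code every BrapcKO library lay above the controls. Within B1 the nearest values were 1.42 and 1.32 CPM, and 14.1% of all genes were separated in this way there. B2 holds a single BrapcKO library, and no share of all genes over both codes was computed. The log2 fold change was 0.52 (SE 0.31, edgeR adjusted p = 0.41) without and 0.72 (SE 0.33, edgeR adjusted p = 0.22) with the code. Without BrapcKO 05 it was 0.22 (edgeR adjusted p = 0.73) in the fit without the code. Psmb9 (beta1i, which replaces Psmb6) stood at 0.463 to 0.97 CPM in the controls and at 1.91 CPM in BrapcKO 05, and at 0.567 to 0.83 CPM in the other BrapcKO libraries. Its log2 fold change was 0.27 (edgeR adjusted p = 0.74) and, without BrapcKO 05, -0.15. At such levels each value rests on few counts.

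Psmb10 (beta2i, which replaces Psmb7) was the abundant member of this set, at 19.3 to 28.3 CPM in the controls and 19.8 to 24.1 CPM in BrapcKO. Its log2 fold change was -0.10 (95% interval -0.36 to 0.16, edgeR adjusted p = 0.7), and BrapcKO 05 held 19.8 CPM, the lowest of its group. Per kilobase, Psmb8 stood at 2.92 to 14.5% of the level of Psmb5 in B1 and at 1.52 to 1.87% in B2. Psmb10 stood at 87.1 to 142% of the level of Psmb7 in B1 and at 34 to 48.6% in B2. Psmb5 and Psmb7 do not overlap between the codes, so these ratios do not compare subunit composition between libraries of different code. Psmb9 stood at 0.325 to 1.35% of Psmb6, which differed little by code.

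Immunoproteasome genes are known to be expressed in microglia and lymphocytes. All 10 microglial markers were in the table and every one was detected. Of these, 3 (C1qa, C1qb and C1qc) were called higher in BrapcKO without the code (30%, against 1.83% of all genes). The summed level was above every control in all 5 BrapcKO libraries. Of 7 lymphocyte markers only Cd4 was in the table, at 3.31 to 8.97 CPM in the controls and 4.86 to 8.5 CPM in BrapcKO. In bulk tissue more cells of a type and more RNA per cell cannot be told apart, and the part of microglia in the values of Psmb8 and Psmb9 was not tested.

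**Figure D5:**
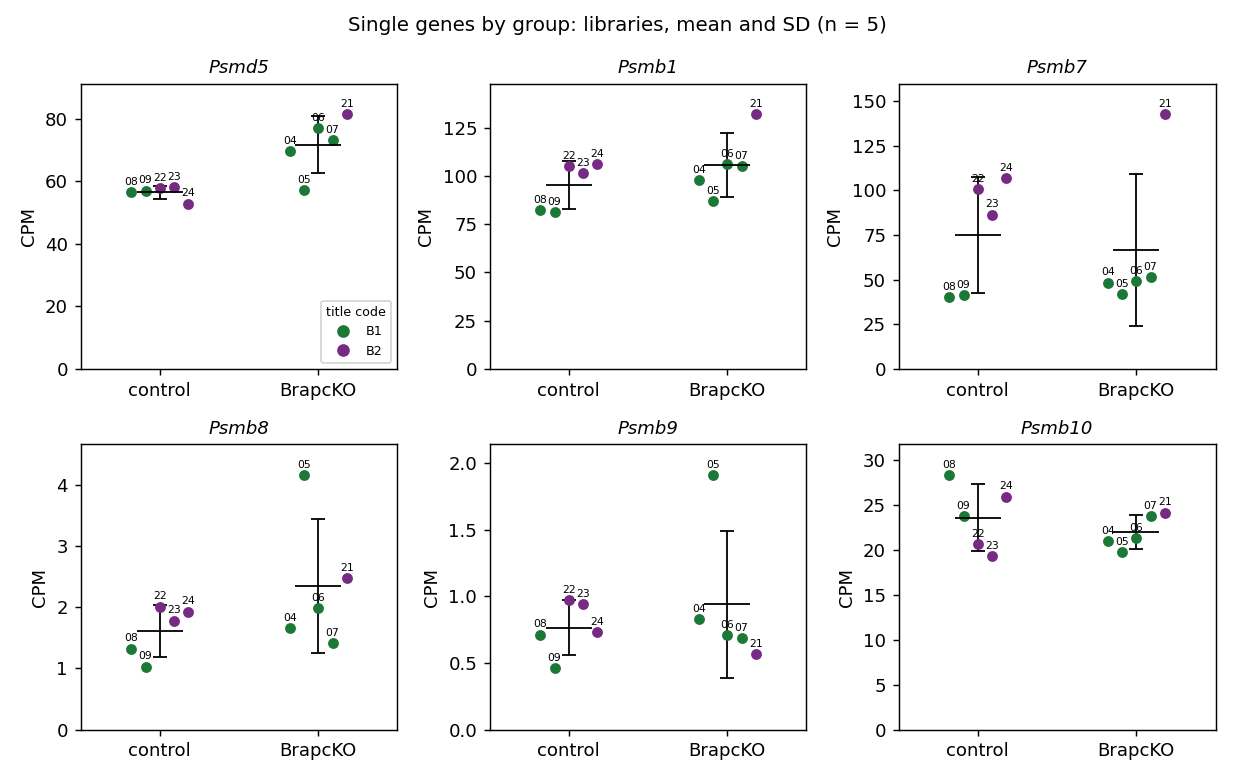
Points are single libraries, numbered as in the titles and coloured by title code, and bars are the group mean and SD (n = 5), in CPM, for 6 members. In Psmd5, BrapcKO 05 sits at 57.3 CPM among the controls and the other BrapcKO libraries lie at 69.8 to 81.5. Psmb1 and Psmb7 show higher BrapcKO values within each code, and BrapcKO 05 is the highest library for Psmb8 (4.16) and Psmb9 (1.91).

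Activators, the inhibitor and the core chaperones did not pass the threshold in either fit. Psme1 and Psme2, which form the interferon-inducible PA28 ring, gave -0.12 and -0.46 without the code and 0.08 and 0.22 with it (edgeR adjusted p = 0.72 and 0.63, then 0.72 and 0.36). Psme2 stood at 3.61 to 5.11 CPM in B1 and 11 to 12.6 CPM in B2. Psme3, the nuclear PA28 gamma, stood at 78.5 to 85.9 CPM in the controls and 73 to 90.8 CPM in BrapcKO (log2 0.03, edgeR adjusted p = 0.87). Psmf1 gave 0.04 without and -0.05 with the code. Of the core chaperones, Psmg2 gave -0.21 without and -0.19 with the code (edgeR adjusted p = 0.32 and 0.36), the lowest value of the 47 with the code. Psmg4 gave 0.16 and 0.37 (edgeR adjusted p = 0.71 and 0.23). Psmc3ip fell into separate levels, at 6.31 to 7.93 CPM in control 08 and 23 and BrapcKO 04, 06 and 07 and at 1.31 to 2.37 CPM in the other 5 libraries, which matched neither the group nor the code. Its exons overlap those of Mlx on the opposite strand.

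BrapcKO and control were also compared by genotype. For flox/flox mice, Cre+ set against Cre-, edgeR called 0 members, 0 had an unadjusted p under 0.05, and 0.0771% of all genes were called. For flox/ko Cre+ set against flox/wt Cre- it called 0 members, 1 (Psmd5) had an unadjusted p under 0.05, and 0.806% of all genes were called. The difference of these contrasts called 0 members, none with an unadjusted p under 0.05, and 0% of all genes. Psmd5 was higher by 0.29 and 0.38 (log2) in the respective contrasts. Both contrasts mix the codes unevenly.

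Other genes of the pathway were read from lists by function. Without the code 0 of 11 proteasome partners, 0 of 13 ubiquitin and delivery genes, 0 of 8 genes around the regulator Nfe2l1, 0 of 8 antigen processing genes and 0 of 9 genes of interferon-gamma signalling were called by edgeR. In the same order 5, 3, 1, 2 and 4 had an unadjusted p under 0.05, and DESeq2 called 0, 2, 0, 1 and 1. Over all genes edgeR called 4.32%, 2641 of 14276 had such a p and DESeq2 called 8.31%. With the code 3 of these 49 genes were called, against 8.07% of all genes, and all 3 were higher: Ufd1, Mafk and H2-D1. Ufd1, a cofactor of the unfoldase Vcp, stood at 44.7 to 56.3 CPM in the controls and 56.2 to 67.6 CPM in BrapcKO, and gave 0.32 without and 0.37 with the code (edgeR adjusted p = 0.063 and 0.02). Faf1, another Vcp cofactor, gave 0.25 without the code (edgeR adjusted p = 0.13). Mafk, a partner of Nfe2l1 in binding DNA, gave 0.36 without and 0.57 with the code (edgeR adjusted p = 0.28 and 0.011). H2-D1, a class I heavy chain, gave 0.40 and 0.73 (edgeR adjusted p = 0.39 and 0.016). Adding the Y-linked score to that fit ended all 3 calls (edgeR adjusted p = 0.084 for Ufd1, 0.067 for Mafk and 0.2 for H2-D1). Within B1 alone H2-D1 was called (edgeR adjusted p = 0.0435), and Ufd1 and Mafk were not (0.064 and 0.096). The Ufd1 call was also lost without control 08, control 09 or BrapcKO 21, the Mafk call without control 08 or BrapcKO 21 and the H2-D1 call without control 08 or 09, with edgeR adjusted p up to 0.11, 0.069 and 0.083. Nfe2l1, which drives proteasome genes when proteasome activity falls, stood at 372 ± 11.2 CPM in control and 361 ± 13.3 CPM in BrapcKO (SD, n = 5 each; log2 -0.04, edgeR adjusted p = 0.74). Its relative Nfe2l2 gave 0.31 without the code (edgeR adjusted p = 0.25).

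Of the 8 antigen processing genes, 7 had log2 fold changes above 0 without the code, with a median of 0.43, and the lowest was -0.33 (Tap2). Their summed level was 123 to 153 CPM in the controls, 148 to 178 CPM in 4 BrapcKO libraries and 315 CPM in BrapcKO 05. H2-K1 gave 0.99 (edgeR adjusted p = 0.061) and Nlrc5, its transactivator, 0.91 (edgeR adjusted p = 0.2). The interferon-induced Gbp2 and Gbp3 gave 0.84 and 0.86 (edgeR adjusted p = 0.12 and 0.098). Without BrapcKO 05 these values were 0.67 for H2-K1, 0.54 for Nlrc5, 0.59 for Gbp2 and 0.56 for Gbp3. H2-K1 was highest in BrapcKO 05, at 36.8 CPM, as Psmb8 and Psmb9 were. H2-D1 and H2-K1 have 7 and 3 near-identical copies, so their counts are uncertain. Of the partners, Ube3c and Ecpas gave 0.20 and 0.24 (edgeR adjusted p = 0.15 and 0.17). Rps27a, a ubiquitin fusion gene whose 50-base windows are all shared with other transcripts, stood at 2.14 to 3.43 CPM in B1 and 78.8 to 91 CPM in B2. Adrm1, the ubiquitin receptor Rpn13, with 87.2% of windows shared, stood at 5.47 to 8.14 CPM in B1 and 26.5 to 33.2 CPM in B2. These are larger differences by code than in any member.

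Promoters were read from RefSeq for 40 of the 47 members (GRCm38.p6, 250 bases before to 50 after the start), and 5 motifs were counted on both strands. The letters CCGGAAG, a core bound by ETS factors, were in the promoters of 10 of 25 subunits of the 26S particle (40%) and 15 of 40 members (37.5%). They were in the promoters of 18.1% of genes in the table and in 8.86% of all promoters. Shares of members and of genes in the table count a gene once if any of its promoters has the motif. Shares of all promoters count every promoter singly, so the units differ. TGACNNNGC, a core of the element bound by Nfe2l1 and its relatives, was in 4 of the 25 (16%), against 16.6% of genes in the table and 12.4% of all promoters. CCAAT was in 40% of the 25, against 42.6% and 37.4%. The interferon-stimulated element, searched as GAAA, any 2 bases and GAAA, was in 5 of 40 members (12.5%, against 3.55% and 3.44%), and in none of the 3 immunoproteasome promoters. TTCNNNGAA, a core bound by STAT factors, was in 3 of 40 (7.5%, against 8.13% and 8.3%). Of the 3 immunoproteasome promoters it was in 1, that of Psmb8. Matches of different motifs may overlap, a match is not a site in use, and none of these counts was tested.

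Matches of 4 genes named above are shown in 30 bases on the gene's strand, with the motif in capitals, as examples of the ETS core (Psmc2, Psmd6), the Nfe2l1 element (Psmb5) and the interferon element (Psme1).
Psmc2: gcgcggagctaCTTCCGGtggggaagagaa
Psmd6: cagagacgcgaCCGGAAGtcagactggcgg
Psmb5: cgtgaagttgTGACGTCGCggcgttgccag
Psme1: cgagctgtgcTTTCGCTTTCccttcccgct

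They lie at chr5:21786712-21786741 (plus strand), chr14:14120972-14121001 (minus), chr14:54618023-54618052 (minus) and chr14:55578493-55578522 (plus). Psmc2 and Psmd6 had log2 fold changes of 0.28 and 0.27 with the code, and Psmb5 and Psme1 of -0.15 and 0.08. Other named members with the Nfe2l1 element gave 0.25 (Psmb6), 0.23 (Psmc6) and 0.12 (Psmd9). Those with the ETS core ran from -0.115 (Psmc3ip) to 0.25 (Psma6), and those with the interferon element from 0.12 (Psmd9) to 0.37 (Psmg4). Whether fold changes go with a motif was not tested.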

How the data were processed

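The deposited table holds raw read counts per gene that the authors made, 1 column per library, with no normalisation visible in the values. The tools listed by the submitters' processing notes are Subread and featureCounts, besides FastQC, edgeR and DESeq2, with mm10/GRCm38; no source used here gives settings, strand or the treatment of reads with several matches. Symbols came from GENCODE M21 (14271 of 14276 identifiers matched).

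All 14276 genes were tested in edgeR 4.0.16 (R 4.3.3, robust quasi-likelihood fit, TMM), with Benjamini-Hochberg adjustment over all genes and a threshold of 0.05. SE is the size of the log2 fold change over the square root of F. DESeq2 1.42.0 and limma-voom 3.58.1 were alternatives. The fit of the group alone was tested on simulated data that held a group difference but none by code or sex. The fits with further terms were not tested in this way. Copies were searched with BLAST+ 2.17.0. At 1 CPM a gene rests on about 17.2 to 29 counts.

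The members, lists and tests were chosen with earlier results of these data known. Named genes are the immunoproteasome members, the called members, and in each class the 2 smallest p-values and the extreme fold changes; from other lists, the called genes and the 2 smallest p-values. One pathway gene is not reported here and was left out of the list counts.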

Additional observations from a re-analysis of the deposited data

Results flagged for a closer look

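Among 60 pairs of a named member and a group, 8 had 1 library far from the other 4, by Dixon's ratio of the nearest gap to the whole range. Chance flags about 1 in 20 groups. BrapcKO 21, the only B2 library of its group, was the distant one for Psma5 (44.1 CPM), Psmb5 (35.3), Psmb7 (143), Psmd7 (83.1), Psme1 (20.1) and Psme2 (12.6), and in each it was the highest of its group. BrapcKO 05 was distant for Psmb9, at 1.91 CPM. Control 24 was distant for Psmd5, at 52.9 CPM, the lowest of the controls.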

How the results depend on the processing

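The count of members called without the title code was 0 and rose to 1 with DESeq2, 1 with library size as the only scaling and 4 with the code as a term. Leaving out 1 library at a time gave 0 to 1, with 1 without BrapcKO 05. Limma-voom, the stricter filter, the Y-linked score and the B1 libraries alone gave 0. The count with the code was 4, 5 with DESeq2 or library size only, 0 with the Y-linked score as a further term, and 0 to 10 when 1 library at a time was left out. These leave-one-out (also for Ufd1, Mafk and H2-D1), DESeq2 and library size runs with the code, and those on the code difference other than the planned fit, were chosen after seeing the data. The count of members that differed by code was 21, and 15 to 24 over all its alternatives.

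The signs of 12 named members changed under a setting other than leaving out a library. With the code, with the code and the Y-linked score, and within B1, the log2 fold changes were 0.31, 0.39 and 0.33 for Psma5 and 0.13, 0.32 and 0.0896 for Psmc5. In the same order they were 0.19, 0.30 and 0.22 for Psmd2, 0.18, 0.24 and 0.15 for Psmd7, 0.22, 0.29 and 0.31 for Psme2, and 0.0818, 0.16 and 0.19 for Psme1. They were -0.0471, -0.0678 and -0.0525 for Psmf1 and 0.35, 0.45 and 0.23 for Psmb7. Psmc3ip gave -0.12 with the code and -0.60 with both terms, and Psme3 gave -0.0088 within B1. With the Y-linked score alone Psmd10 gave -0.0129 and Psmg4 gave -0.0074. When 1 library was left out, Psmb9 ran from -0.15 to 0.39, Psmc5 from -0.26 to 0.0257, Psmd2 from -0.29 to 0.0261 and Psmd10 from -0.0939 to 0.089. Of 367 pairs of a named gene and a setting other than leaving out a library, 29 changed sign and 14 newly passed the threshold. The cause was not tested. No paired analysis was possible because the groups share no replicate numbers.

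The code and the group are uneven, B2 holds 1 BrapcKO library, and the Y-linked score is uneven too, so fits with these terms rest on few libraries. Depth limits Psmb8 and Psmb9, at 1.03 to 4.16 and 0.463 to 1.91 CPM.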
